A study of Mus musculus with 59 samples.

Results

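The vascular endothelial growth factor family was followed through 5 brain regions of a mouse model of spinocerebellar ataxia type 1 as 8 genes: the ligands Vegfa, Vegfb, Vegfc and Pgf, the receptors Flt1 and Kdr, and the co-receptors Nrp1 and Nrp2. The 8 genes were taken by gene name from 54232 mouse genes with read counts, and all 8 passed the filter on low counts in every region. RNA-seq was carried out on 59 libraries of frozen, dissected tissue from 12 mice of the C57BL/6 strain at 10 weeks of age, and cerebellum, brainstem, hippocampus, striatum and cortex were taken, all but 1 brainstem being represented here. The 3 genotypes were WT, Atxn1 154Q/2Q (154Q here) and, as a second knock-in line, Atxn1 154Q[V591A;S602D]/2Q (154Q-AXH here). Each had 4 mice in every region, except that brainstem had 3 154Q-AXH mice.

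The 154Q mice carried a knock-in allele with 154 glutamines beside a normal allele with 2 glutamines, so the expanded protein was made wherever Atxn1 is normally expressed. In 154Q-AXH mice the expanded allele also carried V591A and S602D, 2 changes in the AXH domain that stop ATXN1 from binding Capicua (CIC), a transcriptional repressor. Positions follow the human protein. Both mutant genotypes therefore shared the expansion and differed in the CIC-binding site of the expanded protein. The normal allele of 154Q-AXH mice was unchanged, and the paper counts it as still able to bind CIC. The comparison of each mutant genotype with WT asks what the expansion changes with and without binding of the expanded protein to CIC. Libraries are named by genotype and mouse number, such as WT-70 or 154Q-AXH-207. Read counts per gene did not separate the Atxn1 alleles. Atxn1 itself passed the test in none of the 15 genotype comparisons, and its lowest adjusted p (edgeR) was 0.0785, for the brainstem of 154Q mice against WT, at a log2 fold change of 0.24.

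Vascular endothelial growth factors are secreted proteins that drive the growth, survival and permeability of blood vessels. VEGFA, the best known, binds the receptor tyrosine kinases FLT1 and KDR. KDR carries most of the growth signal in endothelium, while FLT1 binds ligand tightly, signals weakly and also exists as a soluble decoy. VEGFB and placental growth factor (PGF) bind FLT1, and VEGFC acts mainly on lymphatic endothelium through FLT4. Neuropilins present some of these ligands to the kinase receptors, but in neurons they are also the ligand-binding receptors of class 3 semaphorins, which guide axons. In the brain VEGFA is made largely by glia and neurons, whereas Flt1 and Kdr are mostly endothelial. VEGFA has been studied in mouse models of this disease before.

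Depth differed by region. The median number of read pairs counted in genes per library, with M for 1000000, was 89.6 M in brainstem, 85.4 M in cerebellum, 83.1 M in hippocampus, 39.7 M in cortex and 35.3 M in striatum. Cortex and striatum libraries also had 50.0% to 50.1% of reads on the first strand, against 48.9% to 49.7% in the other regions. Their share of pairs with an ambiguous gene was 5.1% to 5.3%, against 4.4% to 4.8%. Differences of cortex and striatum from cerebellum, brainstem and hippocampus therefore cannot be told apart from a difference between these sets of libraries. The lowest counts of the members in any library were 1764 for Vegfa, 1808 for Vegfb, 1257 for Flt1, 306 for Kdr, 320 for Nrp1 and 293 for Nrp2, but only 74 for Vegfc and 39 for Pgf. Values below are CPM, the counts of a gene per 1000000 counts of the library, scaled by the trimmed mean of M values (TMM) method, and genes were compared with each other only after division of CPM by the exon length in kilobases (RPKM). Marker genes separated cerebellum, brainstem, hippocampus and striatum from every other library, whereas the cortex markers did not: their lowest mean in cortex was 5.99 log2 CPM, below the highest mean elsewhere, 6.32. In whole tissue, fewer cells of a type and less RNA per cell cannot be told apart.

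Some libraries stood apart. The hippocampal 154Q-76 library held high levels of both Xist (7.49 log2 CPM) and Ddx3y (5.69), transcripts of female and male cells respectively, and its brainstem markers averaged 4.65 log2 CPM against -3.63 to -2.15 in the other hippocampal libraries. The cortical WT-221 library had an Xist level of 8.92, while the 4 other libraries of that mouse reached at most 2.59. The original names of the cortical 154Q-76 and 154Q-AXH-207 data each named the other mouse. Sex was read from the same transcripts. Every library of 154Q-75 and 154Q-AXH-217 had high Xist and low Ddx3y, as in females (cerebellar Xist 10.2 and 10.0 log2 CPM). The WT libraries, cortical WT-221 apart, had high Ddx3y and low Xist, as in males. Each mutant genotype thus held a female mouse beside WT mice read as male, and the part of sex was not tested. Mouse numbers also split by genotype: all 154Q mice had numbers under 100, all 154Q-AXH mice had numbers over 200, and WT had 2 mice of each series. A difference between the series and a difference between the mutant genotypes therefore cannot be told apart except through WT.

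**Figure D1:**
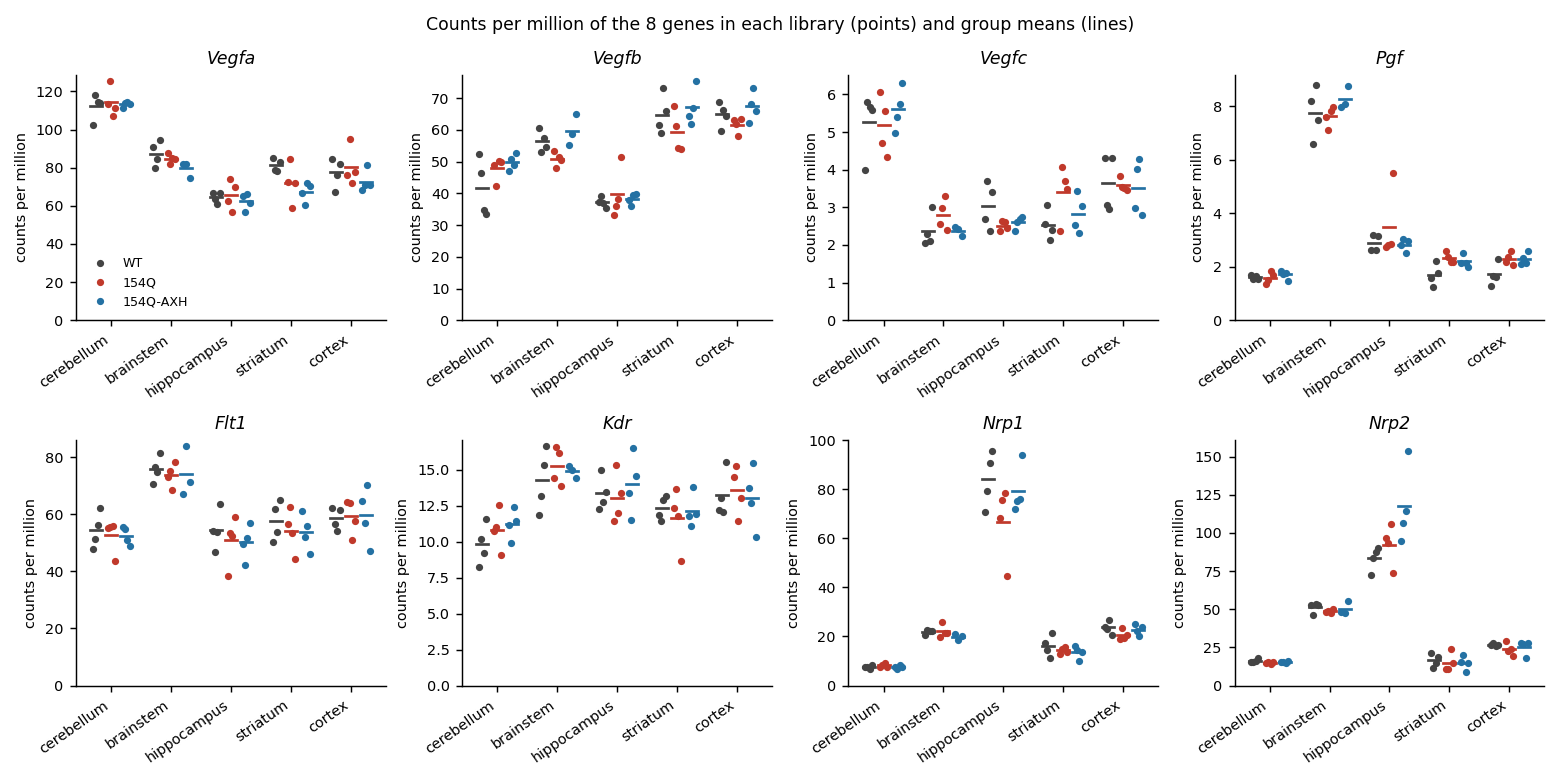
Level of each of the 8 genes in every library (CPM, linear axes from 0), by region, with a point for each mouse coloured by genotype and lines for the group means. The regions separate far more than the genotypes: hippocampal Nrp1 in WT lies between 70.5 and 95.7 CPM, while cerebellar Nrp1 in WT lies between 6.76 and 8.33.

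Per exon length, Vegfa and Vegfb were the main ligand transcripts of every WT region. Vegfa made up 29.9% of the summed ligand RPKM in cortex and 47.7% in cerebellum, and Vegfb made up 47.4% in cerebellum and 66.7% in cortex. Vegfc held between 1.63% (brainstem) and 3.91% (cerebellum), and Pgf between 0.960% (striatum) and 4.52% (brainstem). Cerebellum was the region where the mean Vegfa and Vegfb levels were closest, at 26.2 and 26.0 RPKM, while Vegfb exceeded Vegfa in the other 4 regions. In single WT cerebella the ratio of Vegfa to Vegfb ran from 0.734 to 1.27, so the closeness is that of the means. Among the receptors, Flt1 had the highest RPKM share in cerebellum (55.5%), brainstem (40.8%), striatum (49.2%) and cortex (41.4%). Hippocampus differed in this ranking, since Nrp1 and Nrp2 held 40.6% and 33.3% of the receptor RPKM there and Flt1 19.1%. Kdr stayed below Flt1 in every region, with 1.09 to 1.58 RPKM against 4.03 to 5.61.

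**Figure D2:**
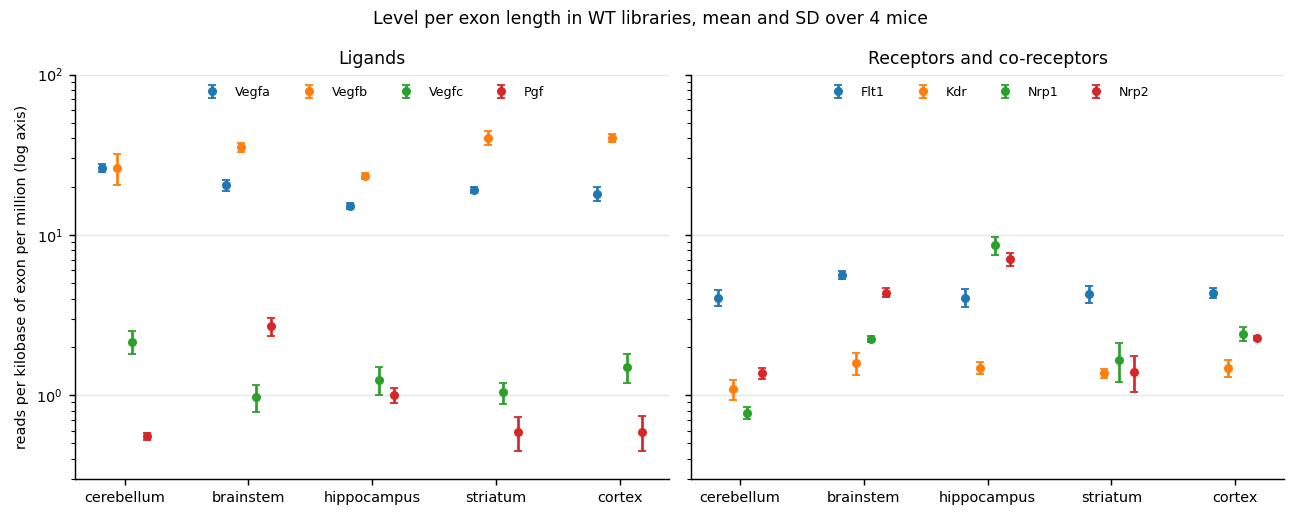
Mean level per exon length (RPKM) of the 8 genes in the 5 regions of WT mice on a log axis, as the mean (points) and SD (bars) of 4 mice, with ligands on the left and receptors on the right. Vegfb reaches 40.4 RPKM in striatum and cortex, and Nrp1 goes from 0.771 RPKM in cerebellum to 8.58 RPKM in hippocampus.

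All 8 genes differed among the WT regions (edgeR's quasi-likelihood test, adjusted p from 2.79e-14 for Nrp1 to 0.00134 for Kdr), but 91.6% of the 22200 genes tested did so. Over the 10 pairs of regions, 52 of 80 tests were called, which has to be read against the share of all genes called. That share was 65.4% for cerebellum against brainstem, 63.6% against hippocampus, 71.8% against striatum and 70.3% against cortex. It was 60.7% for brainstem against hippocampus, 66.1% against striatum and 65.1% against cortex, 58.2% for hippocampus against striatum, 55.4% for hippocampus against cortex and 10.7% for striatum against cortex. Nrp1 and Nrp2 were each called in 9 of 10 pairs, Vegfa in 8, Pgf in 7, Vegfb in 6, Vegfc in 5, and Flt1 and Kdr in 4 each. With the mouse as a replicate block, 54 tests were called, the added ones being a pair for Vegfc and a pair for Kdr.

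In the genotype comparisons no member was called: 0 of 120 tests (8 genes, 5 regions and 3 contrasts) had an adjusted p under 0.05 by edgeR, and 11 had an unadjusted p under 0.05. DESeq2 called 1, hippocampal Nrp2 in 154Q-AXH against WT, and had 13 unadjusted p under 0.05. The shares of all genes that follow are those of edgeR, and the shares of DESeq2 were not counted. Among all genes tested, 154Q against WT called 5.22% in cerebellum, 0.538% in brainstem, 5.91% in hippocampus, 5.69% in striatum and 11.1% in cortex. For 154Q-AXH against WT these shares were 2.21%, 0.0138%, 1.30%, 1.35% and 7.15%, and for 154Q-AXH against 154Q they were 0.0335% in cerebellum and 0 in the other regions. Unadjusted p under 0.05 were found for 4 of 40 member tests in 154Q against WT, 4 in 154Q-AXH against WT and 3 in 154Q-AXH against 154Q. The shares of all genes, in the order cerebellum, brainstem, hippocampus, striatum and cortex, were 18.0%, 10.9%, 21.5%, 23.6% and 25.3% in the first comparison, 15.1%, 6.73%, 14.9%, 12.6% and 20.5% in the second and 7.60%, 5.35%, 11.0%, 3.26% and 6.67% in the third. Groups did not overlap in 4 of 120 member tests: striatal Vegfa and hippocampal Nrp2 in 154Q-AXH against WT, and brainstem Vegfb and Pgf in 154Q-AXH against 154Q. Of all genes, in the same order of regions, 9.78%, 5.64%, 13.7%, 17.5% and 14.6% had no overlap in 154Q against WT, 8.51%, 7.43%, 11.7%, 6.80% and 15.3% in 154Q-AXH against WT, and 6.08%, 5.09%, 4.58%, 4.93% and 3.01% in 154Q-AXH against 154Q. The log2 fold changes of the members ran from -0.31 to 0.43 in 154Q against WT, from -0.27 to 0.48 in 154Q-AXH against WT and from -0.34 to 0.32 in 154Q-AXH against 154Q. The 95% interval of the fold stayed within 1.5 in either direction in all 15 comparisons for Vegfa, Vegfb, Flt1 and Kdr, in 12 for Vegfc and Nrp1, in 10 for Nrp2 and in 9 for Pgf.

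**Figure D3:**
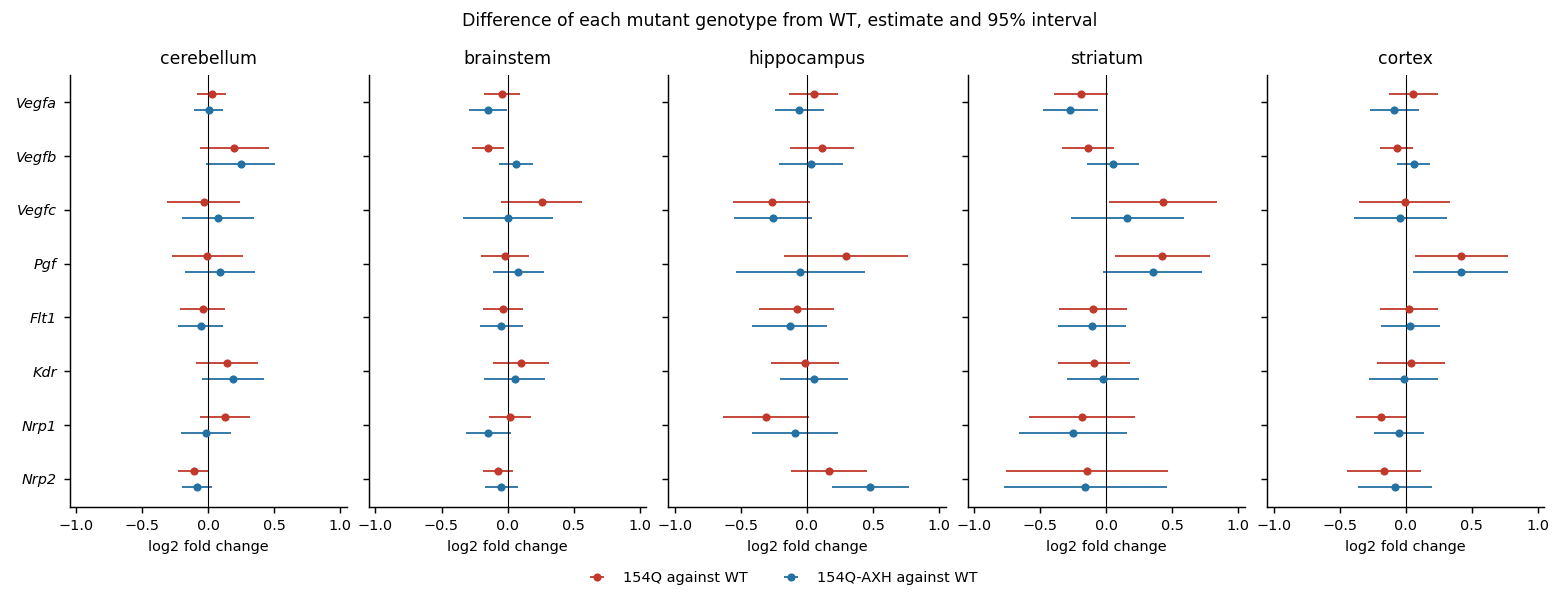
Log2 fold change of each mutant genotype against WT for the 8 genes in each region, with points for the edgeR estimate and lines for the 95% interval. The largest estimate is 0.48, for hippocampal Nrp2 in 154Q-AXH mice, and no estimate passed an adjusted p of 0.05.

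Vegfa (GRCm38, chr17:46016993-46032369, minus strand, 4285 bases of exon) was highest in cerebellum, at 112 ± 6.71 CPM (SD, n = 4) in WT. Brainstem had 87.4 ± 6.64, striatum 81.4 ± 3.34, cortex 77.5 ± 7.56 and hippocampus 64.6 ± 2.75 (SD, n = 4 each). Cerebellum was 1.72-fold above hippocampus (adjusted p = 4.47e-09, edgeR), and the neighbours in this order that were not called were brainstem with striatum (adjusted p = 0.189) and striatum with cortex (adjusted p = 0.479).

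The striatum was the region where Vegfa was lowest in the mutants relative to WT. The 4 WT striata had 78.3, 78.9, 83.1 and 85.2 CPM, the 154Q striata 58.7, 71.8, 72.3 and 84.3, and the 154Q-AXH striata 60.4, 66.5, 70.2 and 72.2. All 4 striata of 154Q-AXH mice lay below the lowest WT striatum, as did 3 of the 4 of 154Q mice. The log2 fold change of 154Q-AXH against WT was -0.27 (SE 0.0963), with an unadjusted p of 0.0141 and an adjusted p of 0.229 by edgeR. Among all genes of that comparison, 12.6% had an unadjusted p under 0.05 and 6.80% had groups that did not overlap. For 154Q against WT the estimate was -0.19 (SE 0.0960, adjusted p = 0.248, edgeR). Against the WT mice of their own number series, the mean log2 levels differed by -0.26 in 154Q-AXH and -0.20 in 154Q mice. Marker levels of several cell types differed between these striata. The summed endothelial markers were 470 to 556 CPM in WT, 425 to 478 in 154Q and 441 to 499 in 154Q-AXH, so the groups overlapped. No member was called by edgeR with or without their level as a covariate, which does not show their part in the Vegfa values. The summed astrocyte markers were 3557 to 4005 CPM in WT, 2884 to 3256 in 154Q and 2883 to 3427 in 154Q-AXH, both mutant ranges lying below that of WT. The summed markers of striatum itself were 1773 to 6241 CPM in WT, 684 to 1225 in 154Q and 620 to 3470 in 154Q-AXH, and only the 154Q range lay apart from WT. The part of the astrocyte and striatal levels in the Vegfa values was not tested.

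In the cerebellum, where Vegfa was most abundant, the genotypes had nearly the same level. WT cerebella had 103, 114, 115 and 118 CPM, 154Q cerebella 107, 111, 113 and 125, and 154Q-AXH cerebella 111, 114, 114 and 114. The groups overlapped throughout. The fold of 154Q over WT had a 95% interval of 0.943 to 1.10, and that of 154Q-AXH over WT an interval of 0.928 to 1.08. In brainstem, 154Q-AXH mice had 74.7, 82.0 and 82.1 CPM against 79.7 to 94.7 in WT (log2 fold change -0.15, SE 0.0674, unadjusted p = 0.0478, adjusted p = 0.736, edgeR; 6.73% of all genes had an unadjusted p under 0.05). Hippocampus and cortex gave estimates between -0.09 and 0.06 against WT.

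Vegfb (chr19:6982473-6987651, minus strand, 1605 bases of exon), a ligand of FLT1 tied to lipid handling and cell survival, had its highest WT levels in cortex (64.9 ± 3.87 CPM, SD, n = 4) and striatum (64.8 ± 6.20). Brainstem followed with 56.4 ± 3.42, then cerebellum with 41.8 ± 9.10 and hippocampus with 37.3 ± 1.504. By edgeR, no pair among the 3 regions at the top was called (adjusted p from 0.112 to 0.956), nor was cerebellum against hippocampus (adjusted p = 0.249). Striatum was 1.74-fold above hippocampus (adjusted p = 3.33e-06).

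Cerebellar Vegfb differed within WT. WT-70 and WT-77 had 52.3 and 46.4 CPM, whereas WT-220 and WT-221 had 34.8 and 33.6. The 154Q cerebella had 42.4, 49.1, 50.0 and 50.3 CPM, and the 154Q-AXH cerebella 46.9, 49.0, 51.0 and 52.7. Thus the 2 WT mice with numbers over 200 lay below all other cerebella, by -0.53 on the log2 scale against the 2 other WT mice, and the remaining 10 libraries overlapped. A split of 2 WT mice from 2 others is common by chance. The WT series did not overlap for hippocampal and striatal Vegfb or for several other members either. The share of all genes that split in this way was not counted. Against all WT mice, 154Q-AXH was 0.24 higher (SE 0.123, adjusted p = 0.373) and 154Q 0.20 higher (SE 0.123, adjusted p = 0.442) by edgeR. When the number series entered the fit as a covariate, the estimate for 154Q-AXH against WT became 0.56 (adjusted p = 0.000996) and that for 154Q-AXH against 154Q became 0.62 (adjusted p = 0.0380). In that fit only WT mice, 2 of each series, tell the series from the genotype. The share of all genes called in that fit was not counted, so these calls cannot be set against it.

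In brainstem, Vegfb was lowest in 154Q mice. WT brainstems had 53.0, 54.6, 57.5 and 60.8 CPM, 154Q brainstems 48.1, 50.6, 51.4 and 53.4, and 154Q-AXH brainstems 55.2, 58.8 and 65.1. The 2 mutant genotypes did not overlap, and only the highest 154Q library reached into the WT range. The log2 fold change was -0.15 for 154Q against WT (SE 0.0545, unadjusted p = 0.0180, adjusted p = 0.334) and 0.21 for 154Q-AXH against 154Q (SE 0.0586, unadjusted p = 0.00308, adjusted p = 0.639) by edgeR. In these comparisons, 10.9% and 5.35% of all genes had an unadjusted p under 0.05, and 5.09% of genes had mutant groups that did not overlap. Cortical Vegfb went the same way between the mutants, with 58.1 to 63.3 CPM in 154Q and 62.1 to 73.2 in 154Q-AXH (log2 fold change 0.13, unadjusted p = 0.0459, adjusted p = 0.744; 6.67% of all genes had an unadjusted p under 0.05).

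Vegfc (chr8:54077606-54187096, plus strand, 2449 bases of exon), the lymphatic growth factor, was a low transcript in all regions. WT cerebellum had the most, 5.26 ± 0.846 CPM (SD, n = 4), followed by cortex with 3.66 ± 0.749, hippocampus with 3.04 ± 0.612, striatum with 2.54 ± 0.387 and brainstem with 2.37 ± 0.443. Cerebellum exceeded each other region, by 2.21-fold over brainstem (adjusted p = 3.54e-06, edgeR) and 1.45-fold over cortex (adjusted p = 0.00882). Cortex also exceeded brainstem (adjusted p = 0.00654), and no other pair was called.

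In striatum, Vegfc was 2.14, 2.41, 2.55 and 3.06 CPM in WT and 2.37, 3.48, 3.70 and 4.08 in 154Q mice. The library 154Q-69 lay inside the WT range and the other 3 lay above it. The 154Q-AXH striata, with 2.32, 2.52, 3.03 and 3.42 CPM, spanned both groups. The log2 fold change of 154Q against WT was 0.43 (SE 0.189, unadjusted p = 0.0404, adjusted p = 0.190, edgeR), in a comparison where 23.6% of all genes had an unadjusted p under 0.05. Hippocampal Vegfc pointed the other way, at -0.27 (SE 0.134) in 154Q and -0.25 (SE 0.136) in 154Q-AXH mice, neither of them called.

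Pgf (chr12:85166635-85177790, minus strand, 2903 bases of exon), a ligand that binds FLT1 and not KDR, stood out in brainstem. WT brainstem had 7.77 ± 0.950 CPM (SD, n = 4), against 2.90 ± 0.316 in hippocampus and 1.61 to 1.72 in cerebellum, striatum and cortex. The brainstem level was 4.89-fold that of cerebellum (adjusted p = 1.10e-11, edgeR), 4.54-fold that of cortex and 2.66-fold that of hippocampus. Hippocampus in turn exceeded each of the 3 lowest regions (adjusted p at most 0.000693), of which no pair was called.

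The brainstem library set also bears on a hippocampal value. Hippocampal Pgf was 5.51 CPM in 154Q-76, the library with brainstem markers, and 2.73 to 2.84 in the other 3 hippocampi of 154Q mice. WT hippocampi had 2.63, 2.64, 3.17 and 3.19 CPM, and 154Q-AXH hippocampi 2.51 to 3.03. Apart from 154Q-76 the genotypes overlapped. In brainstem itself 154Q-AXH had 7.97 to 8.77 CPM and 154Q 7.13 to 7.97, which did not overlap, although their nearest values round to the same number.

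In cortex and striatum Pgf was higher in the mutants without passing the test. WT cortices had 1.28, 1.64, 1.66 and 2.29 CPM, 154Q cortices 2.05, 2.18, 2.37 and 2.59, and 154Q-AXH cortices 2.12, 2.15, 2.32 and 2.60. The WT value inside the mutant ranges was 2.29, from WT-221, the cortical library with an Xist level unlike that of its mouse. The log2 fold change was 0.42 in both 154Q (SE 0.166, unadjusted p = 0.0227, adjusted p = 0.122) and 154Q-AXH (SE 0.168, unadjusted p = 0.0261, adjusted p = 0.165) by edgeR. Against the WT mice of their own number series, the mean log2 levels in cortex differed by 0.64 in 154Q but 0.24 in 154Q-AXH mice. Without cortical WT-221 the 154Q estimate was 0.59 and was called (adjusted p = 0.0406, edgeR), while that of 154Q-AXH was not. The share of all genes called without that library was not counted. With every library kept, 25.3% and 20.5% of all genes in these cortical comparisons had an unadjusted p under 0.05. In striatum, WT had 1.24, 1.57, 1.77 and 2.22 CPM, 154Q 2.18, 2.20, 2.38 and 2.59 and 154Q-AXH 2.01, 2.14, 2.16 and 2.53. Only WT-220 reached the mutant values, and the 2 WT mice of the higher number series lay above the 2 others. The share of all genes whose WT series split in this way was not counted. The striatal log2 fold change was 0.42 in 154Q (SE 0.165, unadjusted p = 0.0240, adjusted p = 0.147) and 0.35 in 154Q-AXH (SE 0.173, unadjusted p = 0.0633, adjusted p = 0.437) by edgeR. Within the number series, the striatal differences from WT were 0.73 in 154Q and 0.15 in 154Q-AXH mice.

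Flt1 (chr5:147561604-147726011, minus strand, 13504 bases of exon), which encodes VEGFR1, was highest in brainstem and even elsewhere. WT brainstem had 75.8 ± 4.41 CPM (SD, n = 4), and the other regions 54.4 ± 6.22 (cerebellum), 54.6 ± 7.001 (hippocampus), 57.8 ± 6.87 (striatum) and 58.6 ± 3.79 (cortex). Brainstem was 1.31-fold to 1.41-fold above each of them (adjusted p from 0.000135 to 0.00159, edgeR), and none of the 6 pairs among the other 4 regions was called.

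No genotype difference of Flt1 was larger than the spread between mice. In cortex WT libraries had 54.2 to 62.1 CPM, 154Q 51.1 to 64.2 and 154Q-AXH 47.2 to 70.3, and in brainstem the ranges were 70.7 to 81.3, 68.7 to 78.4 and 67.0 to 83.8. The genotypes overlapped in every region. All 15 log2 fold changes lay between -0.13 and 0.03, and the 95% intervals of the fold reached from 0.749 to 1.19.

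Kdr (chr5:75932827-75978458, minus strand, 9030 bases of exon), which encodes VEGFR2, was lowest in cerebellum. WT cerebellum had 9.82 ± 1.41 CPM (SD, n = 4) against 14.3 ± 2.14 in brainstem, 13.4 ± 1.16 in hippocampus, 13.2 ± 1.60 in cortex and 12.3 ± 0.812 in striatum. Cerebellum was below each other region (adjusted p from 0.000193 to 0.0115, edgeR), and no pair among those 4 regions was called. With the mouse as a replicate block, brainstem against striatum was also called (adjusted p = 0.0496).

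Cerebellar Kdr showed the widest genotype estimates of this gene. WT cerebella had 8.27, 9.23, 10.2 and 11.6 CPM, 154Q 9.06, 10.7, 11.0 and 12.5, and 154Q-AXH 9.90, 11.2, 11.5 and 12.4. The groups overlapped, with log2 fold changes of 0.14 (SE 0.110) and 0.19 (SE 0.109) and adjusted p of 0.556 and 0.466 (edgeR). In the other regions the estimates against WT lay between -0.09 and 0.10.

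Flt1 and Kdr went with the endothelial marker level of a library. Over the 59 libraries, after the mean of each region and genotype was subtracted, log2 CPM correlated with the mean of 20 endothelial markers at a Pearson r of 0.751 for Flt1 (Spearman rho 0.715) and 0.597 for Kdr (rho 0.618). Without the 2 libraries farthest from the median these values were 0.710 and 0.604. Within single regions r was 0.647 to 0.910 for Flt1 and 0.412 to 0.828 for Kdr. The other members had lower values: 0.318 for Vegfa, 0.263 for Vegfc, 0.219 for Vegfb, 0.175 for Pgf, -0.07 for Nrp1 and -0.18 for Nrp2. These are descriptions without a p, since all genes of a library share its tissue piece, depth and scaling. Among 17540 genes, those closest to Flt1 in this measure were Ptprb (r = 0.867), Cd93 (0.780) and Adgrf5 (0.778), and those closest to Kdr were Bcl6b (0.703), Gbp5 (0.643) and Robo4 (0.629). Ptprb and Robo4 were also in the endothelial list.

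**Figure D4:**
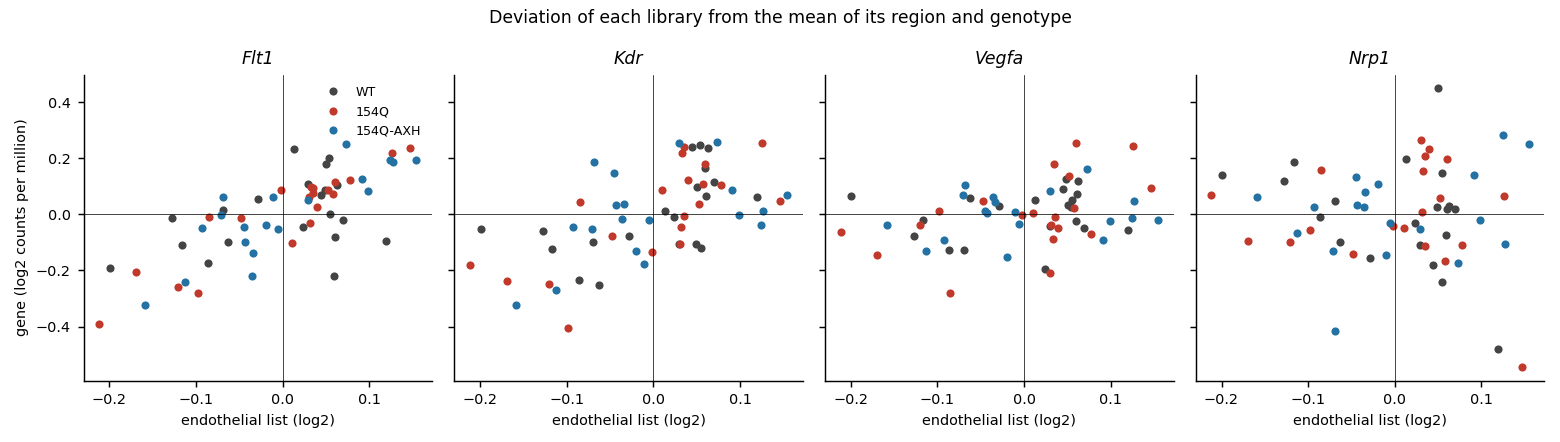
Deviation of each library from the mean of its region and genotype, in log2 CPM, for the mean of 20 endothelial markers (horizontal axis) and a member gene (vertical axis), with 59 points a panel (Flt1, Kdr, Vegfa and Nrp1). Flt1 (r = 0.751) and Kdr (r = 0.597) rise with the marker level, while Vegfa (r = 0.318) and Nrp1 (r = -0.07) follow it less closely.

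Nrp1 (chr8:128358604-128503363, plus strand, 9785 bases of exon) had the steepest regional gradient of the 8 genes. WT hippocampus had 84.0 ± 11.3 CPM (SD, n = 4), cortex 23.7 ± 2.49, brainstem 21.8 ± 0.978, striatum 16.2 ± 4.33 and cerebellum 7.55 ± 0.646. Hippocampus was 11.3-fold above cerebellum (adjusted p = 2.21e-14, edgeR) and 3.59-fold above cortex (adjusted p = 1.44e-09). Cortex and brainstem were the only pair not called (adjusted p = 0.528), and cortex exceeded striatum by 1.46-fold (adjusted p = 0.0168) in the comparison where 10.7% of all genes were called. The annotation places the microRNA gene Mir1903 on the same strand within Nrp1, sharing 80 bases of its exons.

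Hippocampal Nrp1 was 70.5, 79.3, 90.5 and 95.7 CPM in WT, 44.7, 68.4, 75.4 and 78.3 in 154Q and 72.1, 75.4, 76.05 and 93.9 in 154Q-AXH mice. The lowest value, 44.7, was that of 154Q-76, and the other 3 of that genotype overlapped WT. The log2 fold change of 154Q against WT was -0.31 (SE 0.150, adjusted p = 0.253, edgeR), and that of 154Q-AXH was -0.09 (SE 0.150, adjusted p = 0.831). The WT mice with numbers under 100 had 70.5 and 79.3 CPM, and those with numbers over 200 had 90.5 and 95.7. Against the WT mice of their own series, the mean log2 levels differed by -0.20 in 154Q (154Q-76 included) and -0.24 in 154Q-AXH mice. Over the 20 alternatives that touch this region, the 154Q estimate ranged from -0.39 to -0.15 and was called in none. In the other regions the estimates against WT lay between -0.25 and 0.13.

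Nrp2 (chr1:62703285-62818695, plus strand, 11842 bases of exon) shared the hippocampal maximum. WT hippocampus had 83.4 ± 7.79 CPM (SD, n = 4), brainstem 51.4 ± 3.30, cortex 26.8 ± 0.652, striatum 16.5 ± 4.22 and cerebellum 16.2 ± 1.23. Hippocampus was 5.23-fold above cerebellum (adjusted p = 4.82e-13, edgeR) and 1.63-fold above brainstem (adjusted p = 1.95e-05), and every pair except striatum with cerebellum (adjusted p = 0.748) was called. Nrp2 fell off differently from Nrp1 in brainstem, where Nrp2 was 1.94-fold above cortex (adjusted p = 4.65e-07) and Nrp1 was not called between the same regions. Over the 15 group means Nrp1 and Nrp2 had a Pearson r of 0.894, and within groups over 59 libraries 0.556, again as descriptions.

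Hippocampal Nrp2 gave the largest genotype estimate of the family. WT hippocampi had 72.5, 83.5, 87.6 and 90.2 CPM, 154Q hippocampi 73.7, 93.2, 96.5 and 106, and 154Q-AXH hippocampi 94.7, 107, 114 and 154. Every 154Q-AXH value lay above every WT value, and in 154Q mice 3 of 4 did so, the exception being 154Q-76 with 73.7. The log2 fold change of 154Q-AXH against WT was 0.48 (SE 0.133), a 1.40-fold difference with a 95% interval of 1.14 to 1.71. It had an unadjusted p of 0.00340 and an adjusted p of 0.0999 by edgeR, in a comparison where 14.9% of all genes had an unadjusted p under 0.05 and 11.7% had groups that did not overlap. DESeq2 called it (adjusted p = 0.0201), and edgeR called it once 154Q-76 was left out of the fit (log2 fold change 0.48, adjusted p = 0.0440), although that library belonged to neither group compared. The share of all genes called was counted for neither of these fits. For 154Q against WT the log2 fold change was 0.17 (SE 0.133, adjusted p = 0.512), and for 154Q-AXH against 154Q it was 0.32 (SE 0.133, unadjusted p = 0.0346, adjusted p = 0.429) by edgeR, where 11.0% of all genes had an unadjusted p under 0.05. Within a number series, the mean log2 level of 154Q-AXH was 0.38 above the 2 WT mice with numbers over 200, and that of 154Q 0.23 above the 2 WT mice with numbers under 100. Outside hippocampus, the estimates of Nrp2 against WT were all negative, from -0.17 to -0.05, and none was called.

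Whether the genotype differences varied among regions was tested directly with an interaction term. None of the 8 genes was called for 154Q (lowest adjusted p = 0.253, Vegfc, where 5.71% of all genes were called) or for 154Q-AXH (lowest adjusted p = 0.438, Nrp2, where 1.33% were called) by edgeR. The unadjusted p of Nrp2 in 154Q-AXH mice was 0.0348, the only one under 0.05. With the mouse as a replicate block no gene was called either, and the lowest adjusted p were 0.206 and 0.281.

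Ratios within a library remove the scaling between libraries, and 3 of them (Nrp2 to Nrp1, Vegfa to Vegfb and Flt1 to Kdr, in RPKM) were added after the values above had been seen. Over the 45 comparisons of the 3 ratios between genotypes, 7 had groups that did not overlap, and these 7 had an unadjusted p of 0.0286, the smallest that 4 mice against 4 (or 3 against 4) allow in a two-sided exact permutation test over mice. None passed after adjustment over the 45 (lowest adjusted p = 0.184, exact permutation test). With so few mice the smallest possible p leaves hardly any room to pass this adjustment, so that outcome decides nothing. The share of other gene pairs whose ratios did not overlap was not counted, and the values below are descriptions. In hippocampus the Nrp2 to Nrp1 ratio was 0.779 to 0.871 in WT (mean 0.825), 1.02 to 1.36 in 154Q (mean 1.17) and 1.08 to 1.35 in 154Q-AXH mice (mean 1.21). The WT range lay below both mutant ranges, by a fold of 1.41 for 154Q (1.33 without 154Q-76) and 1.47 for 154Q-AXH. In cerebellum the order was the reverse for 154Q mice, with 1.31 to 1.65 against 1.67 to 2.00 in WT. The Vegfa to Vegfb ratio was lower in 154Q-AXH than in 154Q mice in brainstem (0.429 to 0.556 against 0.614 to 0.637) and cortex (0.389 to 0.416 against 0.452 to 0.577), again without overlap, and the cortical 154Q-AXH range also lay below that of WT (0.423 to 0.478). Flt1 to Kdr ratios overlapped between genotypes except in cortex, where 154Q-AXH had 2.99 to 3.15 and 154Q 2.80 to 2.99.

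**Figure D5:**
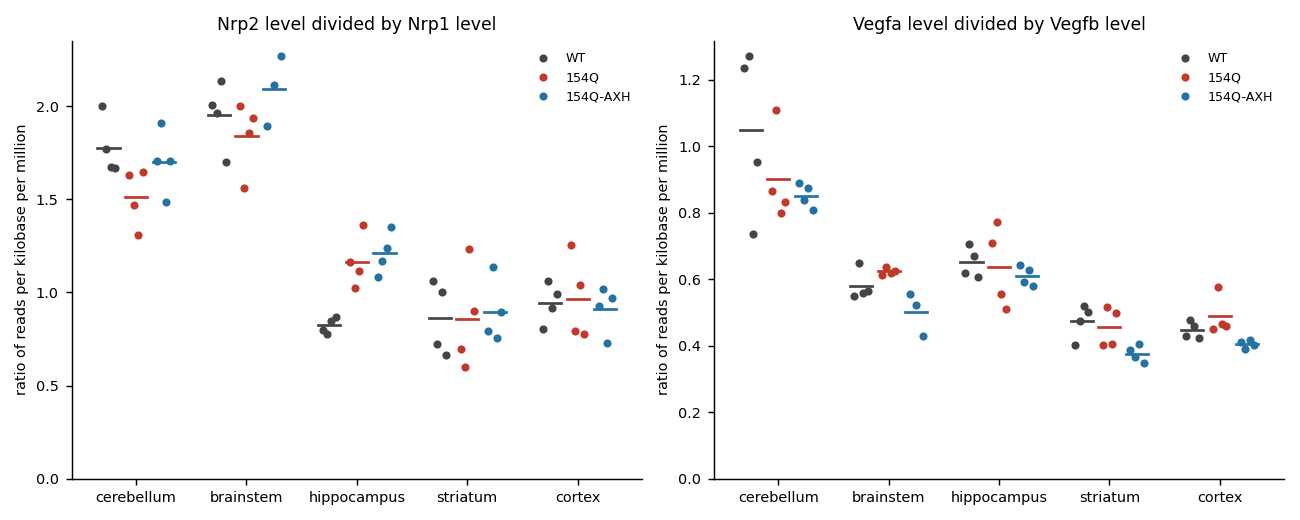
Ratio of Nrp2 to Nrp1 (left) and of Vegfa to Vegfb (right) in every library, as a ratio of RPKM values from 0 upward, by region and genotype, with lines for the group means. In hippocampus the WT ratios of Nrp2 to Nrp1, 0.779 to 0.871, lie below all mutant ratios, which start at 1.02.

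Next, the genes around the family were counted in lists of downstream signalling, vessel growth, neuropilin partners and hypoxia response. These lists and the marker lists below were chosen with earlier results of these data known. Their hippocampal values come from fits that include 154Q-76, the library with brainstem markers. They were not repeated without it, and its part in the hippocampal calls of 154Q was not tested. Of all genes, 0.538% (brainstem) to 11.1% (cortex) were called in 154Q against WT. For 154Q-AXH against WT the share was 0.0138% (brainstem) to 7.15% (cortex). The direction of the calls over all genes was not counted. The VEGF signalling list (28 genes, 140 tests over 5 regions) had 4 higher and 12 lower calls in 154Q against WT, and 2 higher and 2 lower calls in 154Q-AXH against WT. Its median log2 fold change in a region lay between -0.02 and 0.01 in 154Q, beside -0.01 to 0.02 for all genes. The called genes encode signalling proteins used by many receptors. Prkcb, a protein kinase C, fell in 154Q hippocampus (-0.53, SE 0.137, adjusted p = 0.0409), striatum (-0.44, SE 0.1001, adjusted p = 0.0250) and cortex (-0.45, SE 0.0866, adjusted p = 0.00347) by edgeR, and in 154Q-AXH cortex (-0.35, SE 0.0866, adjusted p = 0.0230). Ppp3ca, the catalytic subunit of calcineurin, fell in hippocampus (-0.70) and striatum (-0.54) of 154Q mice. Mapk3, the kinase ERK1, rose in cortex of both mutants (0.47 and 0.42). Nos3, the endothelial nitric oxide synthase, fell in 154Q striatum from 5.42 to 3.82 CPM (-0.51, SE 0.120, adjusted p = 0.0277).

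Several vessel growth genes outside the family passed the test. In this list (26 genes, 129 tests) 6 calls were higher and 10 lower in 154Q, and 4 were higher and 2 lower in 154Q-AXH against WT. Angpt1, the ligand that stabilises vessels through TEK, rose in 154Q cerebellum from 18.01 ± 1.97 to 24.1 ± 0.574 CPM (SD, n = 4 each; log2 fold change 0.43, SE 0.0665, adjusted p = 0.00147, edgeR). It also rose in 154Q brainstem (0.44, adjusted p = 0.0489) and hippocampus (0.46, adjusted p = 0.0123), and in 154Q-AXH cerebellum (0.39, adjusted p = 0.00714) and hippocampus (0.62, adjusted p = 0.00730). Apln, a peptide of tip cells that also acts outside vessels, fell in striatum of 154Q (from 46.4 to 27.6 CPM, -0.76) and 154Q-AXH mice (-0.51) and in 154Q cortex (-0.69). Met, the receptor of hepatocyte growth factor, rose in cortex of both mutants (0.83 and 0.81). Pdgfb, which recruits pericytes, fell in 154Q striatum (-0.42) and 154Q-AXH cortex (-0.32), and S1pr1, a sphingosine phosphate receptor of endothelium and astrocytes, fell in 154Q cerebellum (-0.16), hippocampus (-0.29) and striatum (-0.32).

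The semaphorins and plexins that work with neuropilins had 3 higher and 4 lower calls in 154Q and 2 higher and 3 lower calls in 154Q-AXH against WT, of 60 tests each. Sema3a, the semaphorin that binds NRP1, rose in cerebellum of 154Q (from 32.5 ± 3.06 to 39.8 ± 0.461 CPM, SD, n = 4 each; 0.29, adjusted p = 0.00381, edgeR) and 154Q-AXH mice (0.22, adjusted p = 0.0392), and in striatum of both (0.49 and 0.47). Plxnd1, a plexin of vessels and neurons, fell in 154Q cerebellum (-0.25) and in cortex of both mutants (-0.54 and -0.53). Sema3f, the semaphorin that binds NRP2, fell in 154Q-AXH cortex from 13.7 to 8.13 CPM (-0.75, SE 0.171, adjusted p = 0.0140). In hippocampus, where Nrp1 and Nrp2 were highest, no gene of this list was called in any comparison (edgeR; 4, 3 and 1 of 12 had an unadjusted p under 0.05 in the 3 comparisons).

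Every called gene of the hypoxia response list was lower in the mutants. Of 110 tests, 0 were higher and 10 lower in 154Q, and 0 were higher and 6 lower in 154Q-AXH against WT. The list was chosen with earlier results known and holds regulators such as Vhl beside genes that respond, so these counts are descriptions. The median of the 22 genes reached -0.20 in 154Q striatum, beside -0.01 for all genes there. Bhlhe40, a clock-linked repressor that responds to many stimuli besides low oxygen, fell in hippocampus from 109 ± 8.21 to 55.6 ± 3.403 CPM in 154Q (SD, n = 4 each; -0.95, adjusted p = 5.19e-05, edgeR) and to 58.8 ± 1.61 in 154Q-AXH mice (-0.90, adjusted p = 0.000102). In cortex it fell by 0.71 and 0.81 on the log2 scale. P4ha1, a collagen prolyl hydroxylase, fell in 154Q hippocampus and striatum and in 154Q-AXH cerebellum and striatum (-0.61 to -0.31), and Vhl, which marks HIF proteins for degradation, fell in 154Q striatum (-0.28) and in cortex of both mutants (-0.25 and -0.15).

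Markers of the cells that carry these receptors or make these ligands were counted beside them. The endothelial list (20 genes, 100 tests) had 0 higher and 2 lower calls in 154Q against WT, striatal Esam (-0.44) and Cldn5 (-0.48), which encode junction proteins, and 0 higher and 1 lower call in 154Q-AXH against WT, striatal Esam (-0.46). Its median was below that of all genes in every region for both mutants, down to -0.22 in 154Q striatum. Mural markers had 1 higher call in 154Q (striatal Atp13a5, 0.42) and no other. Astrocyte markers had 15 lower and 0 higher calls of 50 tests in 154Q, and 3 lower and 0 higher in 154Q-AXH against WT. Of the 8 Purkinje cell markers, 7 were lower in 154Q and 3 in 154Q-AXH cerebellum against WT. Outside cerebellum, where there are no Purkinje cells, genes of this list had 3 lower calls (Rgs8 in hippocampus and cortex, Itpr1 in striatum) and 1 higher call (Slc1a6 in cortex) in 154Q, and 1 lower call (Rgs8 in cortex) in 154Q-AXH mice. Neither microglial nor choroid plexus markers were called in any region by edgeR (unadjusted p under 0.05 in 5 and 0 tests of 154Q and in 2 and 0 of 154Q-AXH against WT), although choroid plexus transcripts varied between libraries, from 35.9 to 5658 CPM in sum. No gene of these 10 lists was called between 154Q-AXH and 154Q by edgeR, where unadjusted p under 0.05 numbered from 0 (endothelial and choroid plexus lists) to 16 (vessel growth list). With the endothelial or the choroid plexus level as a covariate no member was called in any comparison. As edgeR called none without them either, this outcome does not show the part of these cells. The sign of the estimate changed in 16 of the 120 tests with the endothelial level and in 7 with the choroid plexus level. The part of the other cell types in the member values was not tested.

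Since CIC acts through short DNA motifs, the 250 bases upstream of each RefSeq start of the 8 genes (GRCm38.p6, 10 windows) were searched on both strands. None of the 10 windows held a CIC octamer (TGAATGAA, TCAATGAA, TGAATGGA or TCAATGGA), which 3.19% of 32851 mouse promoter windows of that length held. At that share few or none of 10 windows would hold it, so its absence says little. The paper searched a longer upstream stretch for its own CIC motif and measured CIC binding in cerebellum by CUT&RUN. Neither was used here. A GC box (GGGCGG) lay in 9 of 10 windows, and 32.7% of all windows held it. The hypoxia core ACGTG, present in 16.6% of all windows, lay in 1 window, that of the downstream Vegfa start, and CCGGAA, the core of ETS sites (12% of windows), lay in Kdr alone. The Flt1 window held a cyclic AMP response element (TGACGTCA, 1.55% of windows) and a TATAAA box (12.4%). A match or its absence describes these letters only. The windows of the ligand Vegfa (chr17:46032378-46032627, minus strand), both kinase receptors (Flt1, chr5:147726012-147726261, minus strand, and Kdr, chr5:75978459-75978705, minus strand) and Nrp2 (chr1:62703067-62703284, plus strand), the gene with the largest genotype estimate, are shown 5′ to 3′ as far as they lie outside the annotated gene, with matched motifs in capitals (RefSeq, GRCm38.p6).
Vegfa: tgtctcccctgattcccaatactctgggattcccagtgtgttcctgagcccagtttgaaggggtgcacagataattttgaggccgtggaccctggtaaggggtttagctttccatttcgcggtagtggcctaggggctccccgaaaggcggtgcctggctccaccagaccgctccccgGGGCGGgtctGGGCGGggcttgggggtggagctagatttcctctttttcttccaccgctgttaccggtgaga
Flt1: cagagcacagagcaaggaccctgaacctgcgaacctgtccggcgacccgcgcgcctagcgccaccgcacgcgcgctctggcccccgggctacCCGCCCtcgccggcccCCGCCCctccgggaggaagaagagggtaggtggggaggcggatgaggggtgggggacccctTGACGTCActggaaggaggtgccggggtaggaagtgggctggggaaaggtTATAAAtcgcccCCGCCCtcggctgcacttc
Kdr: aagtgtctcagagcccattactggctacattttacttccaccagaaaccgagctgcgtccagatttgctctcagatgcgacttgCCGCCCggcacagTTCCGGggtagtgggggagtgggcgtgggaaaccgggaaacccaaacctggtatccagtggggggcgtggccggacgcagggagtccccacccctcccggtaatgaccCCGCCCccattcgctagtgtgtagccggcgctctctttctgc
Nrp2: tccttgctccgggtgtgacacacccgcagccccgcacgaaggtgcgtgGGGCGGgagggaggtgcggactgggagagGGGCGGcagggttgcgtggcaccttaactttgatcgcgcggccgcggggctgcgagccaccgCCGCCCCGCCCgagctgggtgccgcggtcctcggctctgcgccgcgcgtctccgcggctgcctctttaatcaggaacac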

How the data were processed

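Per the labels and the study's methods, polyA RNA from 59 tissue samples was sequenced as paired reads, trimmed with Trimmomatic 0.36 and aligned with STAR 2.7.2d to GRCm38.p6 (GENCODE M18), and the submitters' processing notes also name DESeq2 1.28.1. The deposited values were raw counts of read pairs per gene, made by the authors without normalization or filter. The column that ignores strand was used here, because reads on the first strand made up 48.9% to 50.1% of those on both strands. Between 75.3% and 81.2% of the pairs in the files fell in a gene, and rows that name no gene were left out. Gene symbols and exon lengths came from GENCODE M21, which matched 54165 of 54232 identifiers.

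For each region, 1 quasi-likelihood model of the 3 genotypes (edgeR 4.0.16 with R 4.3.3, TMM scaling, filterByExpr) was used, and p-values were adjusted by Benjamini-Hochberg over all genes of that fit. A gene was called at an adjusted p under 0.05, and p-values measure the spread between mice. WT regions were compared in a fit of 20 libraries, and interactions in fits of WT with 1 mutant genotype. The scripts were tested on simulated data. Log2 CPM used a prior count of 2. DESeq2 1.42.0, other scaling, no filter, covariates and libraries left out were tried as alternatives. Genotypes share no mouse, so that their comparison is not paired. Libraries with the same mouse number in 2 regions had a median correlation of deviations of -0.00136 (40 pairs), beside 0.00281 for different mice (120 pairs). The region fits were repeated with the mouse as a replicate block because the labels give the same mouse number in each region. Cortical WT-221, whose Xist level was unlike that of its mouse, was kept in the WT-221 block.

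The members and the gene lists were chosen with earlier results of these data known. Named list genes were up to 3 called genes with the lowest adjusted p per list and comparison with WT, and for each member the 3 genes most correlated with it. Promoter windows came from RefSeq.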

Additional observations from a re-analysis of the deposited data

Results flagged for a closer look

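Of 112 groups of 4 mice (a gene in a region and genotype), 6 held a library whose gap to the nearest of the other 3 was a larger part of the group's range than Dixon's 95% critical value for 4 samples. Chance flags about 1 in 20 such groups. Cerebellar Vegfb was 42.4 CPM in 154Q-71 and 49.1 to 50.3 CPM in the other 154Q mice. Cerebellar Vegfc was 4.0001 CPM in WT-70 and 5.59 to 5.80 in the other WT mice. Hippocampal Pgf was 5.51 CPM in 154Q-76 and 2.73 to 2.84 in the other 154Q mice, and this is the library with brainstem markers at 4.65 log2 CPM. Cerebellar Flt1 was 43.8 CPM in 154Q-76 and 55.3 to 56.1 in the other 154Q mice. Brainstem Nrp2 was 46.5 CPM in WT-77 and 52.7 to 53.5 in the other WT mice. Cortical Nrp2 was 17.7 CPM in 154Q-AXH-217, the mouse of that genotype read as female, and 27.4 to 28.0 in the other 154Q-AXH mice.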

How the results depend on the processing

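In 154Q against WT, no member was called under the settings tried, except that leaving out single libraries gave 0 to 1 calls and removing both doubted libraries (hippocampal 154Q-76 and cortical WT-221, chosen after seeing the data) gave 1. The library that decided this was cortical WT-221, without which cortical Pgf was called (log2 fold change 0.59, adjusted p = 0.0406, edgeR; adjusted p from 0.0406 to 0.267 over 22 alternatives). In 154Q-AXH against WT, DESeq2 gave 1 call and removing both doubted libraries gave 1, each for hippocampal Nrp2 (adjusted p from 0.0201 to 0.388 over 20 alternatives), and leaving out single libraries gave 0 to 1, the call appearing without hippocampal 154Q-76 (adjusted p = 0.0440). With the number series of the mice in the fit, 1 member was called in 154Q-AXH against WT and 1 in 154Q-AXH against 154Q, both cerebellar Vegfb (adjusted p = 0.000996 and 0.0380, edgeR), and the other settings, single libraries left out included (0 to 0), gave no call in the latter comparison. The causes were not tested, and the share of all genes called was not counted for any of these alternatives. Among WT regions, 8 of 8 genes stayed called under every setting, and pairs of regions called numbered 49 to 53 with a library left out, 53 with DESeq2 and 54 with the mouse as a replicate block, which changed no other call. Interactions gave 0 calls throughout. Exchanging or removing the cortical pair whose names disagree gave no call. Pgf and Vegfc had the lowest counts in any library (39 and 74), and the part of depth in the width of their intervals was not tested.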
